A study of Mus musculus with 3 samples.

Results

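Interleukin-1 family genes were examined as a group of 9 among the 55450 genes that both kinds of deposited table share, 21951 of which are protein-coding. The group was taken by gene symbol and joined to the gene tables by gene identifier, and all 9 symbols were found. It holds the ligand genes Il1a, Il1b and Il18, the receptor antagonist gene Il1rn, the binding protein gene Il18bp, the receptor genes Il1r1 and Il1r2, the accessory chain gene Il1rap and the inhibitory receptor gene Sigirr.

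The RNA came from 3 libraries of mouse macrophages, grown from bone marrow of strain C57BL/6J as primary cells. Every library had the same treatment, per the labels: 100 ng/ml Lipid A for 12 h, a wash and 12 h of rest, then 100 ng/ml Lipid A again for 50 min. Lipid A is the part of bacterial lipopolysaccharide that Toll-like receptor 4 recognises. Total RNA was sequenced from the chromatin fraction, which is rich in transcripts still being made, after ribosomal RNA had been removed. Replicate 1 started from 1 µg of RNA, replicate 2 from 250 ng and replicate 3 from 500 ng. The labels name the same donor for all libraries and give neither sex nor age. They do not say whether different animals or cultures were used. Spread between libraries may therefore be technical, and any p-value measures that spread alone. There is 1 group, without untreated cells, so each value below is a level and not a response to Lipid A.

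Interleukin-1 alpha and interleukin-1 beta are inflammatory cytokines that bind the same receptor, Il1r1, which then recruits the accessory chain Il1rap and signals through Myd88. The pathway is braked at several points: the antagonist encoded by Il1rn occupies the receptor without signalling, the decoy Il1r2 binds ligand without signalling, Sigirr dampens signalling, and Il18bp captures interleukin-18. Macrophages are a main source of interleukin-1 beta, which, like interleukin-18, is made as a precursor and cut by caspase-1 in the inflammasome.

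Promoter sequences of the ligand and antagonist genes with the most RNA are given first, because their levels are what the comparisons turn on and because Il1rn has a pair of separate start regions that are measured below. They are RefSeq windows on build GRCm38.p6, from 250 bases before a start to 50 after it, and 8 of the 9 genes matched the table. Capitals mark TATAAA (the TATA box), TGANTCA (an AP-1 form), GGGNNNNNCC (a loose NF-kB form) and GAAANNGAAA (an interferon regulatory factor form), searched on both strands. No capitals of different motifs overlap in the 4 windows shown.
Il1a promoter, chr2:129309923-129310222, minus strand: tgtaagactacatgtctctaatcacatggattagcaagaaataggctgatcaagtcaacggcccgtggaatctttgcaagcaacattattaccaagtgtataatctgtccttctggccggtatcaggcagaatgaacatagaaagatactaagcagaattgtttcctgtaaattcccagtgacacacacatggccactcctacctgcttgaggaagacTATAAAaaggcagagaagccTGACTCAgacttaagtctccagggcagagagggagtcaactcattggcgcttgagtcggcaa
Il1b promoter, chr2:129371090-129371389, minus strand: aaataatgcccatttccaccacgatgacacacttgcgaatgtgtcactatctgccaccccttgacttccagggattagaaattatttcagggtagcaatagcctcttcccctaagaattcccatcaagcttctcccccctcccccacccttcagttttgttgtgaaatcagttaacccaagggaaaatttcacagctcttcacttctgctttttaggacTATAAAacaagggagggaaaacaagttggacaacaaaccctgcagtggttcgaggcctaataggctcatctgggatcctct
Il1rn upstream promoter, chr2:24336610-24336909, plus strand: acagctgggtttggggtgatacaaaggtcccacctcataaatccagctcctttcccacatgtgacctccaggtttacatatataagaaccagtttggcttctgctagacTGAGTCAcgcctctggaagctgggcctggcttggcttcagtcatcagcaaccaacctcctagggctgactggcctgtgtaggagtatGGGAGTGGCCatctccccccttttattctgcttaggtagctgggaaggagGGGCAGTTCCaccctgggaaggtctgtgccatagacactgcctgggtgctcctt
Il1rn downstream promoter, chr2:24345041-24345340, plus strand: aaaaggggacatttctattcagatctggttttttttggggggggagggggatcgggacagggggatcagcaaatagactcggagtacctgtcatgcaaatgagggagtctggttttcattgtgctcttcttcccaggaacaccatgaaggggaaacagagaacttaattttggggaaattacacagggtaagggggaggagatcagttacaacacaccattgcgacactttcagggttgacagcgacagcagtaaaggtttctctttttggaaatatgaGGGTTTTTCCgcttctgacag

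The ligand genes Il1a and Il1b each had TATAAA on the sense strand, beginning 32 bases before the start in Il1a and 31 bases before it in Il1b. Il1a also had TGACTCA beginning 12 bases before its start. The upstream Il1rn window had TGAGTCA 141 bases before its start and 2 matches to GGGNNNNNCC, at 54 and 4 bases before it, and no TATAAA. The downstream Il1rn window shown had a single match, to GGGNNNNNCC, 29 bases after its start. A further RefSeq window of Il1rn, chr2:24345121-24345420, overlaps it and holds the same match, 51 bases before its own start, and TATAAA on the minus strand. Among all 32851 windows of the table, 13.6% hold TATAAA, 7.81% TGANTCA, 50.8% GGGNNNNNCC and 3.44% GAAANNGAAA, against 4, 2, 5 and 1 of the 11 windows of the 8 matched genes. A match of letters is a description of the window and does not show binding.

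The second set of sequences shows where annotated transcripts of the same gene part, since transcript shares are reported below. They come from the GENCODE M21 transcripts (mm10) and read along the transcript. Coordinates span the first to the last base, introns included where the transcript removes them. In Il1b, capitals mark bases of introns that the coding transcript Il1b-201 removes: the first 73 bases of the retained second intron in Il1b-203, and 19 bases kept in Il1b-202.
Il1b-203, chr2:129370211-129370330, minus strand: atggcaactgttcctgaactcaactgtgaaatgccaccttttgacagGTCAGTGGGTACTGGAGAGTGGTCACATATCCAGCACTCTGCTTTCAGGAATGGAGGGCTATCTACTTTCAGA
Il1b-202, chr2:129366061-129367269, minus strand: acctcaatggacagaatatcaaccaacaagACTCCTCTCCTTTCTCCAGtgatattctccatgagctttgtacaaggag
Il1b-201, same span as Il1b-202, minus strand: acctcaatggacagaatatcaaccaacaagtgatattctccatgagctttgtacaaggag
In Il1rn and Il1rap, capitals mark the bases that follow a shared exon (lower case).
Il1rn-201, chr2:24345532-24347505, plus strand: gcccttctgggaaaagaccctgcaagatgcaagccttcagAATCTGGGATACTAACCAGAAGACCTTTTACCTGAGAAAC
Il1rn-206, chr2:24345532-24345982, plus strand: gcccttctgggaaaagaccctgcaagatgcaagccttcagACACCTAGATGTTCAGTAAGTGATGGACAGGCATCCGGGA
Il1rap-201, chr16:26701197-26710512, plus strand: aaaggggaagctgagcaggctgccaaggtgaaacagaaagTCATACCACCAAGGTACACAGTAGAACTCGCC
Il1rap-206, chr16:26701197-26701268, plus strand: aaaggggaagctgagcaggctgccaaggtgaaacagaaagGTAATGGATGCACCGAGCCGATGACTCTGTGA
In Il18, capitals mark a pair of alternative exons of 12 bases between the same neighbouring exons.
Il18-201, chr9:50575319-50577790, plus strand: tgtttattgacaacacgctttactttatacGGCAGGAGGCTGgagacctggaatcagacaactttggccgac
Il18-202, chr9:50575319-50577790, plus strand: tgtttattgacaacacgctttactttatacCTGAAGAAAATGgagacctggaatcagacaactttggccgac

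Levels are given as TPM, a relative abundance that corrects counts for effective length so that genes can be compared. Values are alignment-based unless called read-based, and ± is the SD over 3 libraries. The libraries held 13897176, 19597343 and 19348626 expected counts, in the order of replicates 1 to 3. Pairs of libraries differed far beyond counting noise, with a chi-square per degree of freedom between 41.5 and 102, so none was treated as a repeat deposit. All 7 macrophage markers reached 1 TPM in each library, with a summed level of 864 to 1155 TPM. None of 6 neutrophil, 4 B cell, 4 T cell, 4 dendritic cell, 4 stromal and 4 epithelial markers did, and their summed levels in any library were at most 0.43, 0.16, 0.29, 1.65, 4.07 and 0.11 TPM, in that order. Elane, Cxcr2, Pax5, Cd3d, Cd3e, Cd3g, Epcam and Krt5 were at 0 counts in all 3 libraries. Other markers of these lists were not: Pecam1 had 1.09, 2.29 and 0.98 TPM, and Clec9a 1.16, 0.31 and 0.18 TPM. Col1a1 had 0, 36 and 41 counts and Col3a1 0, 19 and 24. Read-based, Pecam1 stood at 7.9 ± 4.1 TPM and Cxcr2 at 4.05 ± 0.431 TPM.

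Interleukin-1 family genes formed a high and a low set. The ligand genes, the antagonist gene and the interleukin-18 binding protein gene stood between 29.8 and 336 TPM on average, while the receptor-side genes stood between 0.11 and 1.09 TPM. Taking detection as 1 TPM or more in each of the libraries, 6 of the 9 genes were detected, beside 39.3% of all protein-coding genes. Il1rap, at 1.07 TPM in its lowest library, only just met that rule, and Il1r2, Sigirr and Il1r1 did not. In bulk RNA of this kind, fewer cells making a transcript and less RNA per cell cannot be told apart.

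**Figure D1:**
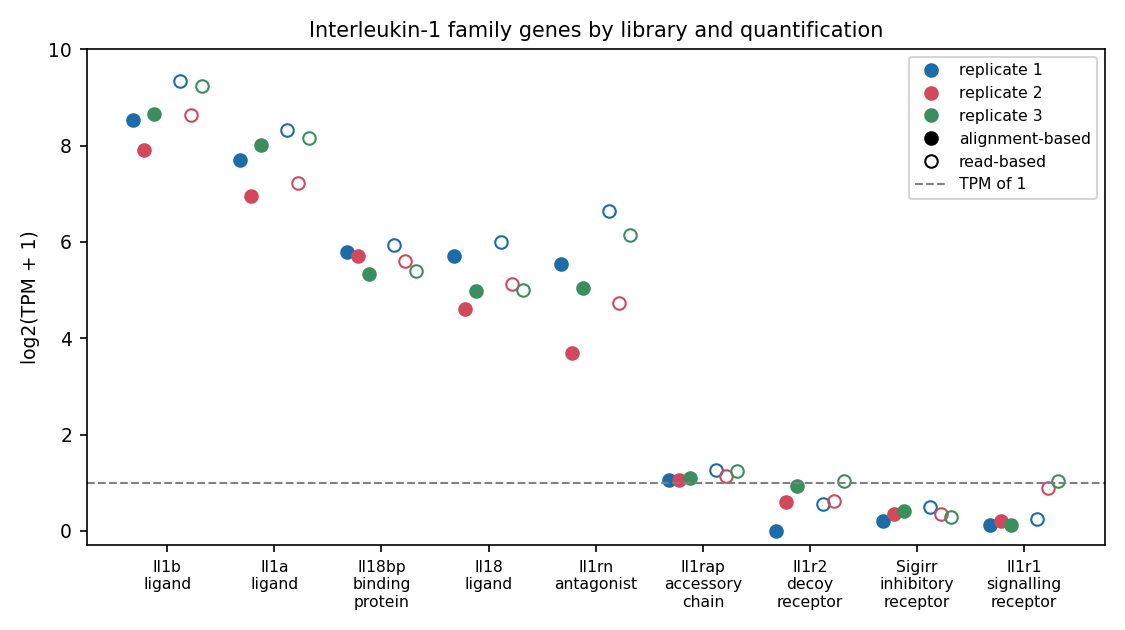
Level of each of the 9 genes as log2(TPM + 1) on the vertical axis, in order of mean TPM from left to right; each point is 1 library, filled for the alignment-based tables and open for the read-based tables. The 5 genes on the left lie well above the dashed line at a TPM of 1 in every library, Il1rap lies just above it, and Il1r2, Sigirr and Il1r1 lie below it in the alignment-based tables.

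Il1b (ENSMUSG00000027398.13, chr2:129364570-129371139, minus strand), which encodes interleukin-1 beta, had 371, 238 and 400 TPM in replicates 1, 2 and 3, from 3664, 3031 and 5315 expected counts. Replicate 2 was the lowest and replicate 3 the highest. Its mean of 336 ± 86.2 TPM placed it above 99.5% of protein-coding genes. The deposited posterior mean TPM was 344, 223 and 374, with credible intervals of 330 to 357, 214 to 233 and 362 to 386 that do not overlap between libraries. The TPM estimates of Il1b and of Il1a lay above their intervals in all 3 libraries. The level of those intervals was not given in the sources used here. They describe counting and assignment error within a library only.

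Il1a (ENSMUSG00000027399.1, chr2:129299610-129309972, minus strand), encoding interleukin-1 alpha, lies next to Il1b on the same strand. It had 208, 123 and 258 TPM, again lowest in replicate 2 and highest in replicate 3, with a mean of 196 ± 68.1 TPM. Its deposited credible intervals, 187 to 198, 111 to 119 and 234 to 246, did not overlap between libraries either. The opposite-strand gene Gm14023 shares 222 of the 1974 exonic bases of Il1a and stood at 155, 130 and 235 TPM. The expected counts of both genes were not whole numbers in any library, while their sums were whole at 8473, 7388 and 13368, so reads were divided between them. Use of strand information was not given in the sources used here. To that extent the level of Il1a is uncertain. The opposite-strand gene Il1bos shares only 25 exonic bases with Il1b and reached at most 2.7 TPM.

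Il18 (ENSMUSG00000039217.13, chr9:50554827-50581840, plus strand), the interleukin-18 gene, had 51.5, 23.4 and 30.5 TPM, from 402, 206 and 244 expected counts. Replicate 1 stood apart on the high side, and the mean was 35.2 ± 14.6 TPM. Il18bp (ENSMUSG00000070427.4, chr7:102014885-102018690, minus strand), encoding the protein that captures interleukin-18, had 54.0, 51.1 and 39.4 TPM, with a mean of 48.2 ± 7.75 TPM. Here replicate 3 was the lowest. Il18bp shares 80 exonic bases with the opposite-strand gene Numa1, which stood at 54.2 ± 3.97 TPM.

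Il1rn (ENSMUSG00000026981.15, chr2:24336853-24351494, plus strand), encoding the interleukin-1 receptor antagonist, had 45.4, 11.9 and 32.1 TPM, from 714, 280 and 614 expected counts. Replicate 2 was far below both other libraries. The mean was 29.8 ± 16.9 TPM. Its deposited credible intervals of 38.9 to 47.3, 9.99 to 14.3 and 27.5 to 34.3 did not overlap.

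The receptor-side genes were low in all 3 libraries. Il1rap (ENSMUSG00000022514.14, chr16:26581704-26730117, plus strand), encoding the accessory chain that the interleukin-1 receptor needs to signal, had 1.07, 1.07 and 1.14 TPM, a mean of 1.09 ± 0.0404 TPM. Il1r2 (ENSMUSG00000026073.13, chr1:40074079-40125231, plus strand), encoding the decoy receptor, had 0, 0.52 and 0.92 TPM from 0, 2 and 7 counts. The 0 in replicate 1 allows up to 0.303 TPM at 3 counts, a floor that covers counting error only. In that library its deposited posterior mean was 0.59 TPM, with a credible interval of 0.0637 to 1.33. Its read-based level there was 0.473 TPM. Sigirr (ENSMUSG00000025494.8, chr7:141091175-141100572, minus strand), encoding the inhibitory receptor, had 0.15, 0.27 and 0.33 TPM from 3, 7 and 3 counts. Its deposited posterior mean TPM was 1.03, 1.17 and 1.30, with credible intervals that start at 0.336, 0.388 and 0.357, so its TPM lay below its own interval in every library. By the posterior mean Sigirr would meet the detection rule. Il1r1 (ENSMUSG00000026072.12, chr1:40225080-40317257, plus strand), the signalling receptor of both interleukin-1 ligands, had 0.09, 0.15 and 0.09 TPM from 6, 12 and 7 counts. Its posterior mean TPM was 0.33, 0.38 and 0.35, and its read-based level 0.19, 0.86 and 1.06 TPM. Among the 9 genes it ranked 9 by alignment-based TPM and 7 by read-based TPM. These 3 genes rest on at most 12 counts in any library.

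Neighbours in this order of mean TPM were compared within each library as differences in log2(TPM + 1), a scale that understates differences between low genes. Pairs and their direction were set by the same TPM values, so the number of pairs and their p-values are descriptive. A pair was taken to differ beyond its spread where the difference had the same sign in all 3 libraries and its mean exceeded its SD. By that rule 5 of 8 neighbouring pairs did: Il1b over Il1a, Il1a over Il18bp, Il1rn over Il1rap, Il1rap over Il1r2, and Sigirr over Il1r1. The last of these was 0.17 ± 0.11 and turned to -0.35 ± 0.52 in the read-based tables. Il1a exceeded Il18bp by 1.95 ± 0.71, and Il1rn exceeded Il1rap by 3.69 ± 0.95, the widest step in the order. Il18bp, Il18 and Il1rn could not be ranked: Il18bp minus Il18 was 0.51 ± 0.53, and Il18 minus Il1rn was 0.34 ± 0.52, with the sign reversed in replicate 3. Il1r2 minus Sigirr was 0.20 ± 0.37, with the sign reversed in replicate 1. Leaving out 1 library changed some of these calls. The rule then asks for the same sign only in the libraries left, and is easier to meet. Without replicate 1, Il18bp over Il18 (0.72 ± 0.52) and Il1r2 over Sigirr (0.39 ± 0.19) exceeded their spread. Without replicate 2, Il18bp over Il18 did (0.21 ± 0.20) and Il1rap over Il1r2 no longer did (0.60 ± 0.63). Without replicate 3, Il18 over Il1rn did (0.55 ± 0.53). Other measures changed them too: Il1rap over Il1r2 was 0.19 ± 0.29 by posterior mean TPM, and Il18 minus Il1rn was 1.27 ± 0.39 over protein-coding transcripts and -0.46 ± 0.79 in the read-based tables. The exact two-sided sign-flip permutation test over 3 libraries cannot give a p below 0.25. It gave 0.25 (0.33 after Benjamini-Hochberg adjustment over the 8 pairs) where all signs agreed, and 0.50 otherwise, so no pair passed a threshold of 0.05.

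The 6 pairs of opposing or cooperating genes gave the following. Il1b exceeded Il1a by 0.83, 0.95 and 0.63 on the log2(TPM + 1) scale, a mean of 0.80 ± 0.16 or 1.75-fold. Il1b exceeded the antagonist gene Il1rn by 3.00, 4.22 and 3.60, a mean of 3.61 ± 0.61 or 12.2-fold. Both differences had the same sign in every library, and the second was widest in replicate 2, where Il1rn was lowest.

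Interleukin-18 was not separated from its binding protein in TPM: Il18 minus Il18bp was -0.07, -1.09 and -0.36, a mean of -0.51 ± 0.53. By posterior mean TPM it was -0.52 ± 0.51, just beyond its spread, and in CPM, which leaves out length, it was -2.18 ± 0.59. The signalling receptor was not separated from the decoy either, with Il1r1 minus Il1r2 at -0.37 ± 0.47 and opposite signs among libraries. The accessory chain gene exceeded both of its partners in every library, Il1rap over Il1r1 by 0.92 ± 0.06 and over Sigirr by 0.75 ± 0.09. The first was 0.48 ± 0.46 in the read-based tables, and the second was 0.10 ± 0.06 by posterior mean TPM. The exact sign-flip permutation p, adjusted over the 6 pairs, was 0.30 for 5 pairs and 0.50 for Il1r1 and Il1r2.

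The order of Il1b and Il1a depended on which transcripts were counted. Reads divided between Il1a and Gm14023 also bear on the level of Il1a, and their effect on this order was not tested. Over protein-coding transcripts alone, Il1b stood at 131, 101 and 221 TPM and was lower than Il1a in all 3 libraries, by 0.39 ± 0.24 on the log2 scale. The only annotated transcript of Il1a, the coding Il1a-201, holds 100% of that gene. This filter could therefore remove RNA from Il1b but none from Il1a. In the read-based tables, with every transcript counted, Il1b exceeded Il1a by 1.17 ± 0.22, in 3 of 3 libraries. Il1b exceeded Il1rn in every library under all of these measures, by 3.23 ± 0.61 in the read-based tables and by 3.34 ± 0.67 over protein-coding transcripts.

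**Figure D2:**
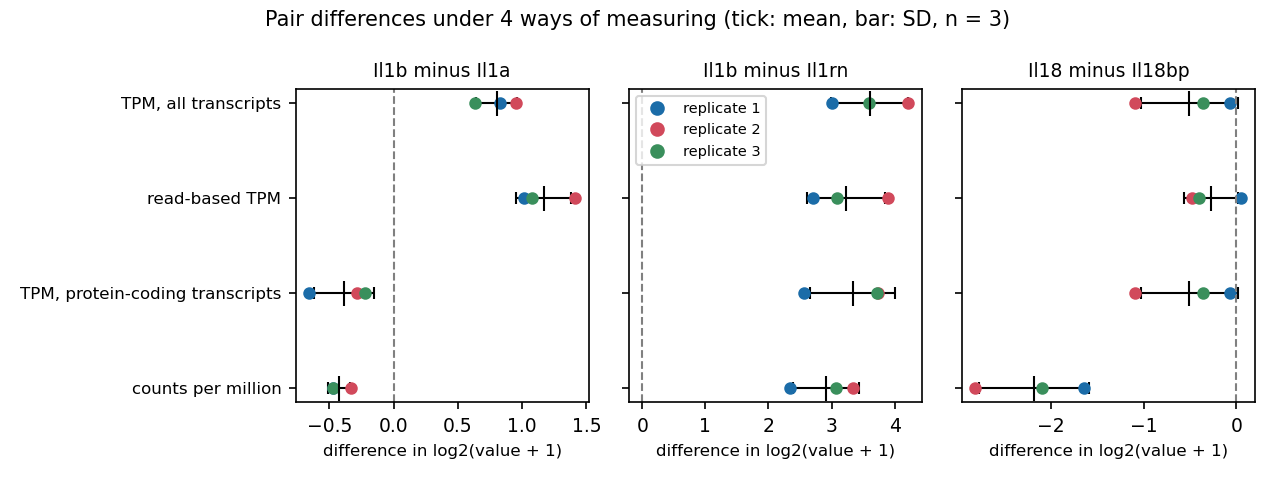
Differences in log2(value + 1) between the genes of 3 pairs on the horizontal axis, under 4 measures on the vertical axis; points are libraries, the tick is the mean and the bar the SD. Il1b minus Il1a lies right of 0 for TPM of all transcripts in both quantifications, and left of 0 for protein-coding transcripts (-0.39 ± 0.24) and for counts scaled to library size (CPM) without length correction (-0.42 ± 0.08), while Il1b minus Il1rn lies right of 0 throughout.

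Transcript tables showed how Il1b RNA was assigned to annotated transcripts. The coding transcript Il1b-201, with 7 exons and 269 codons, held 35.5%, 42.4% and 55.3% of the gene's TPM, a mean of 44.4% ± 10.04. Il1b-203 is annotated as a retained intron: it holds the first exon, the second exon the whole second intron of 532 bases, whose junction is printed above, and the start of the next exon. It held 55.5%, 54.2% and 41.7%, or 206, 129 and 167 TPM, more than the coding transcript in replicates 1 and 2 and less in replicate 3. No other annotated Il1b transcript covers that intron. In chromatin RNA, reads of the intron given to Il1b-203 cannot be told apart from reads of Il1b RNA not yet spliced. As a share of expected counts, which is not corrected for length, Il1b-201 held 66.8% ± 9.40 and Il1b-203 31.9% ± 8.41. Among 8627 detected protein-coding genes the median share of TPM in protein-coding transcripts was 56.0%, and 35.1% of genes had a lower share than Il1b. Il1b thus lay below the median without being extreme.

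The quantifications disagreed on Il1b-202. This noncoding transcript near the 3′ end, which keeps the 19 intronic bases shown in capitals, had 33.6, 8.23 and 12.0 TPM in the alignment-based tables and 281, 156 and 201 TPM in the read-based tables. The other transcripts of the gene were similar in both: Il1b-201 stood at 151 ± 62.4 and 163 ± 52.2 TPM, and Il1b-203 at 167 ± 38.3 and 172 ± 35.9 TPM, alignment-based first. Most of the difference in the gene's level, 336 ± 86.2 against 548 ± 132 TPM, thus lay in Il1b-202.

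**Figure D3:**
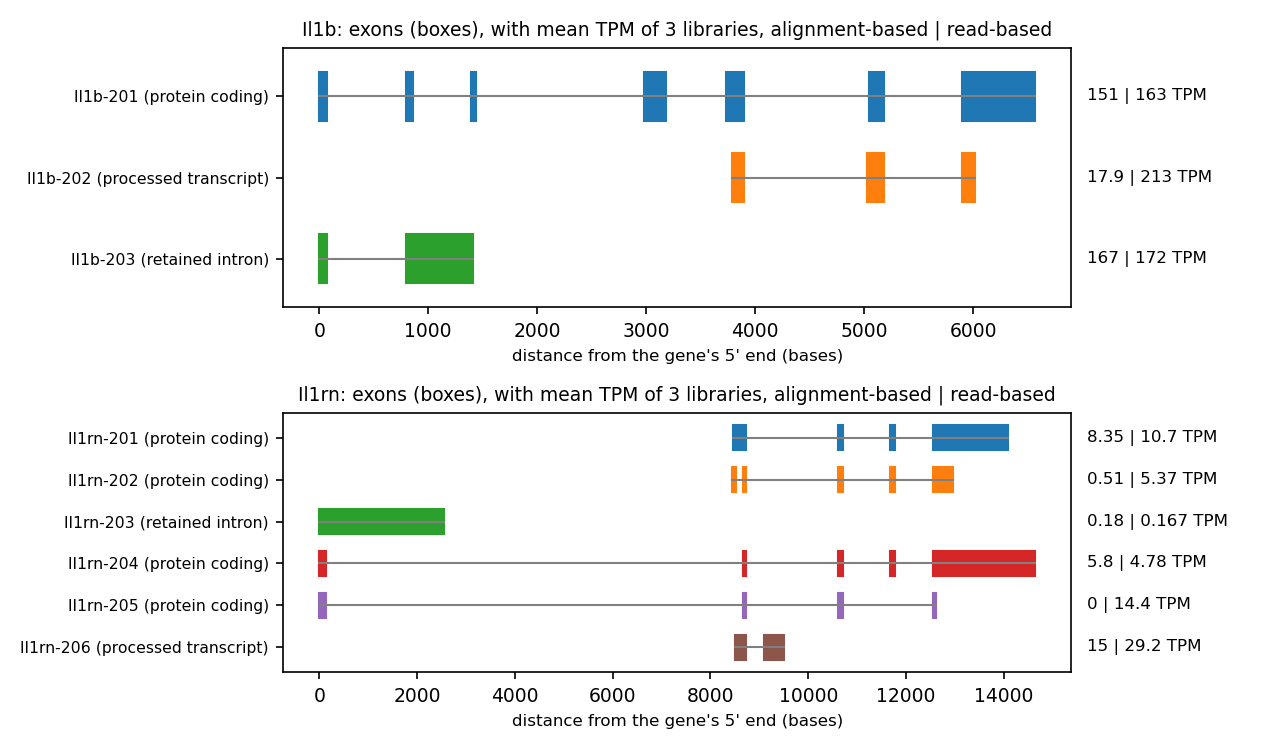
Exons (boxes) of the annotated transcripts of Il1b and Il1rn by distance in bases from the 5′ end of the gene, with the mean TPM over 3 libraries at the right, alignment-based before the bar and read-based after it. Il1b-203 covers the first exons with the intron downstream of the second, Il1b-202 lies in the 3′ part, and the Il1rn transcripts start in an upstream and a downstream region.

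Il1rn can be read by its starts. The downstream start region gives the transcripts Il1rn-201, which codes the secreted antagonist of 178 residues, Il1rn-202 (162 residues) and the noncoding Il1rn-206. The upstream region gives Il1rn-204, which codes the intracellular form of 159 residues, Il1rn-205 and the retained-intron transcript Il1rn-203. Downstream-start transcripts held 81.4%, 69.0% and 81.9% of the gene's TPM, a mean of 77.4% ± 7.32. In the read-based tables they held 69.9% ± 1.90, so both quantifications put the larger share of the gene's TPM there in every library. That share includes the noncoding Il1rn-206 and is scaled by length. Without Il1rn-206 the order was not the same in every library. Il1rn-201 had 11.7, 3.14 and 10.2 TPM downstream, with 1.53, 0 and 0 for Il1rn-202. Upstream, Il1rn-204 had 8.23, 3.49 and 5.69 TPM, so the order turned in replicate 2. In expected counts, replicate 2 had 139.5 for Il1rn-204 and 8 for Il1rn-203, against 97.98 for Il1rn-201 and 34.56 for Il1rn-206. In replicates 1 and 3 Il1rn-201 had 287.3 and 295.6 and Il1rn-204 257.1 and 210.2. Read-based coding transcripts averaged 4.78 (Il1rn-204) and 14.4 TPM (Il1rn-205) upstream, against 10.7 (Il1rn-201) and 5.37 TPM (Il1rn-202) downstream.

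By TPM, the noncoding Il1rn-206 was given the largest share of the gene in every library. It continues from the first exon into an exon that lies within the next intron, as its junction above shows, and it held 52.4%, 42.5% and 50.0% of TPM, with 45.0% ± 0.893 in the read-based tables. The coding transcripts Il1rn-201, Il1rn-202, Il1rn-204 and Il1rn-205 all remove that intron. In chromatin RNA, reads within that exon cannot be told apart from reads of Il1rn RNA not yet spliced. Il1rn-201 held 28.0% ± 3.38 and Il1rn-204 21.8% ± 6.65. As shares of expected counts, without length correction, the order differed: Il1rn-201 held 41.1% ± 6.62, Il1rn-204 40.02% ± 8.53 and Il1rn-206, which is shorter, 16.8% ± 4.40. Il1rn-205, a transcript of 321 bases, had 0 TPM in every alignment-based table and 20.2, 5.29 and 17.8 TPM in the read-based tables. Replicate 2 was lowest for Il1rn-201, Il1rn-204 and Il1rn-206 alike, with 3.14, 3.49 and 5.04 TPM. In protein-coding transcripts Il1rn held 50.9% ± 4.51 of its TPM and 81.7% ± 3.52 of its expected counts, and 43.4% of detected protein-coding genes had a lower share of TPM.

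Il18 showed a disagreement over a 12-base exon. Il18-201 and Il18-202 are both 702 bases long, code 192 residues and differ only in which of the alternative exons printed above they carry. Alignment-based tables put 76.7%, 76.0% and 84.7% of the gene in Il18-202 and 0 in Il18-201 in all 3 libraries, with the rest in Il18-203 and Il18-204, which carry the same exon as Il18-202. Read-based tables put 0 in Il18-202 and 45.1%, 43.5% and 45.7% in Il18-201. The remaining 54.9%, 56.5% and 54.3% of the read-based TPM lay in Il18-203 and Il18-204, so the exon of Il18-202 held the larger share there too, while the exon of Il18-201 was used in the read-based tables alone. The gene's total stood at 35.2 ± 14.6 TPM alignment-based and 42.7 ± 17.8 TPM read-based.

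Il18bp was held mainly by Il18bp-203, which codes 193 residues, at 65.5% ± 2.01. Il18bp-202, which has 4 exons where Il18bp-203 has 7 and is annotated as coding 194 residues, held 34.6% ± 2.01. The read-based tables gave 51.8% ± 5.35 and 30.4% ± 2.50, with 17.8% ± 6.16 in Il18bp-204, a transcript at 0 in the alignment-based tables. Il18bp-203 exceeded Il18bp-202 in every library under both.

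Il1rap had too few counts, 39, 54 and 56.5, for its transcripts to be divided firmly. Il1rap-206, whose coding sequence runs 29 bases into the intron shown in capitals before its stop and ends after 360 residues, held 57.4% ± 9.28. Il1rap-201, which codes the chain of 570 residues with its membrane-spanning and signalling parts, held 30.5% ± 4.38. The read-based tables gave 43.2% ± 10.7 and 44.3% ± 21.7, so their order differed between the quantifications. The transcripts of Il1r1, Il1r2 and Sigirr rest on at most 12 counts per gene and library: all alignment-based Il1r1 counts fell to Il1r1-202 (573 residues), whereas Il1r1-201 (576 residues) held 82.7% ± 16.8 in the read-based tables. For Il1r2, in the 2 libraries with counts, Il1r2-203 held 86.5% and 51.1% and Il1r2-204 13.5% and 48.9%. The read-based tables put 52.8% ± 14.6 of Il1r2 in Il1r2-203, 23.4% ± 20.3 in Il1r2-201 and 18.0% ± 31.2 in Il1r2-202. Sigirr-203 held 67.9% ± 33.4 and Sigirr-204 22.2% ± 38.5 of Sigirr, against 26.7% ± 3.33 and 47.3% ± 41.0 in the read-based tables, which also put 10.6% ± 18.4 in Sigirr-201. These shares vary between libraries by as much as their own size in several cases.

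**Figure D4:**
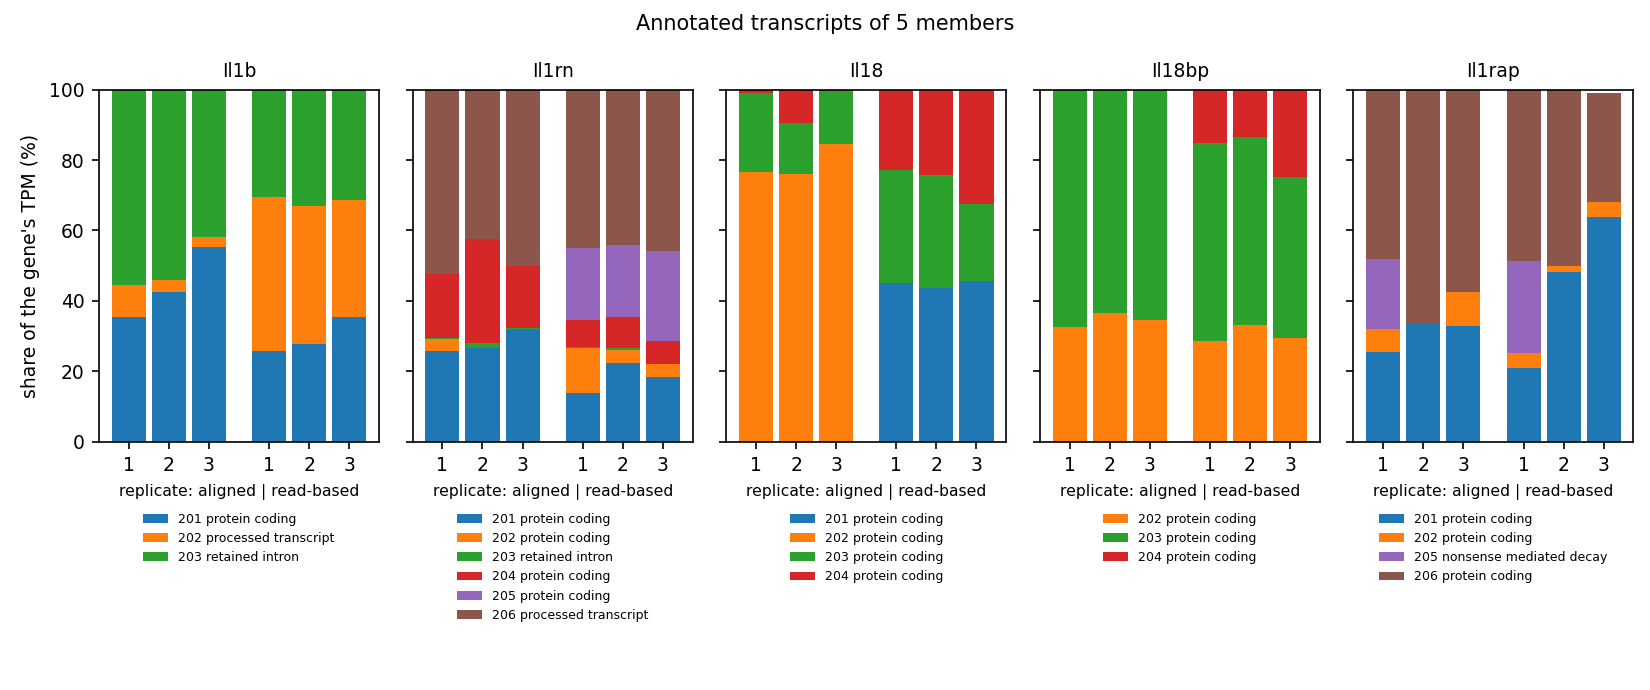
Share of each gene's TPM (vertical axis, percent) held by its annotated transcripts, for the 3 libraries in the alignment-based tables (left bars) and the read-based tables (right bars); transcripts under 1% in every bar are not drawn. Il1b-203 and Il1rn-206 hold large shares in both quantifications, while Il18-201 and Il18-202 exchange places between them.

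Spread between libraries varied widely among the 6 detected genes. The SD of log2(TPM + 1) was 0.96 for Il1rn, 0.56 for Il18, 0.55 for Il1a, 0.40 for Il1b, 0.24 for Il18bp and 0.03 for Il1rap, beside a median of 0.29 over the 9435 protein-coding genes that averaged 1 TPM or more. Of those genes 99.2% had a lower SD than Il1rn, 89.7% than Il18, 88.4% than Il1a and 71.0% than Il1b, against 0.604% for Il1rap. The antagonist gene was thus near the top of the range of spread. The accessory chain gene was near its bottom, but the pseudocount of 1 compresses the spread of a gene at 1.09 TPM. It rests on 39, 54 and 56.45 counts in replicates 1 to 3. Its deposited credible intervals, 0.818 to 1.80, 0.889 to 1.74 and 0.944 to 1.86 TPM, overlap between libraries.

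Replicate 2 was the lowest library for 4 of the 6 genes, Il1a, Il1b, Il1rn and Il18, and remained lowest for those 4 after rescaling each library to its protein-coding genes. It was lowest for 19.7% of the 9435 protein-coding genes and highest for 56.4% of them, but by unscaled TPM it was highest for none of the 6. After rescaling it was highest for Il18bp, at 185.3 against 182.8 and 139.5 TPM. Replicate 2 is also the library with the smallest starting amount, 250 ng, and with the most genes at 1 TPM or more, 13233 against 12398 and 12354. The part of either in the lower levels was not tested, and with 1 library per amount the library and the amount cannot be told apart.

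The genes most like Il1b and Il1rn in level and pattern were found as the 3 nearest protein-coding genes by Euclidean distance of log2(TPM + 1) over the 3 libraries. For Il1b they were Clcn7 at a distance of 0.18, with 351, 253 and 364 TPM, Nfkbia, which encodes the inhibitor of NF-kB, at 0.27, with 318, 263 and 413 TPM, and Mcl1, a survival gene, at 0.27, with 316, 257 and 373 TPM. For Il1rn they were Srgn, encoding the proteoglycan serglycin, at 0.25, with 41.9, 13.3 and 36.1 TPM, Plxna2 at 0.28, with 43.7, 10.9 and 26.9 TPM, and Cited2 at 0.31, with 39.3, 10.1 and 30.4 TPM. They were picked for this likeness, so their shared low value in replicate 2 is a description.

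The rest of the pathway was described from 4 lists of genes. None of the 6 other ligand genes was detected, and 5 of them, Il33, Il36a, Il36b, Il36rn and Il1f10, had 0 counts in all 3 libraries. Il36g, listed as Il1f9, had 0, 1 and 2 counts. Of 6 other receptor genes only Il1rl2, encoding the interleukin-36 receptor, was detected, at 1.26 ± 0.0917 TPM. Il18rap, an interleukin-18 receptor chain, stood at 0.13 ± 0.0265 TPM, and Il1rl1, Il1rapl1 and Il1rapl2 had 0 counts in every library.

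The read-based tables differed for a few of these genes. They gave Il36g 8.05 ± 2.96 TPM, Il18r1 8.09 ± 2.27, Il18rap 7.55 ± 1.30 and Il1rapl2 4.05 ± 2.03, against 0.0433, 0.00667, 0.13 and 0 TPM in the alignment-based tables. A similar gap appeared for the T cell gene Cd3d, at 15.7 ± 3.18 TPM read-based and 0 counts alignment-based, so read-based levels of genes near 0 are uncertain in these libraries.

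Genes for processing and release of the cytokines were all detected, 8 of 8 where the share among protein-coding genes was 39.3%, with a median of 82.2 TPM. The highest were Nlrp3, the inflammasome sensor, at 381, 357 and 607 TPM (448 ± 138), and Casp4, encoding mouse caspase-11, a sensor of intracellular lipopolysaccharide, at 465, 235 and 316 TPM (339 ± 116). The lowest were Pycard, the inflammasome adaptor, at 4.27 ± 1.01 TPM and Nlrc4, a further inflammasome gene, at 11.7 ± 2.45 TPM. The levels of the sensor Nlrp3 and of its adaptor Pycard did not overlap in any library.

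Genes that signal below the receptors were also all detected, 10 of 10, with a median of 32.8 TPM. Irak2, a kinase of the Myd88 complex, was the highest at 246, 219 and 220 TPM (229 ± 15.6), followed by Peli1, a ubiquitin ligase, at 90.3 ± 26.2 TPM. The lowest were Irak4, the kinase that starts the cascade, at 7.92 ± 2.20 TPM and Traf6, the ubiquitin ligase that carries the signal on, at 18.6 ± 1.11 TPM. Both the release list and the signalling list thus stood above the receptor genes Il1r1, Il1r2 and Il1rap in every library, a difference given here without a test.

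**Figure D5:**
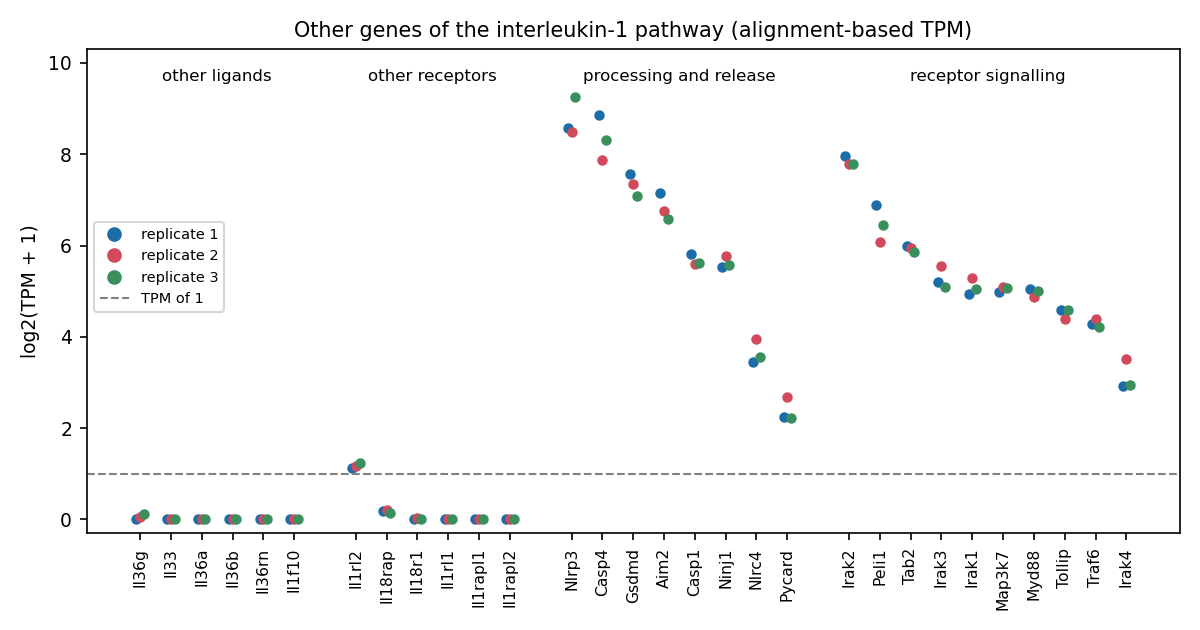
Level of the other pathway genes as log2(TPM + 1) on the vertical axis, grouped by list and ordered by mean TPM within it; each point is 1 library. All genes of processing and release and of receptor signalling lie above the dashed line at a TPM of 1, and among the other ligands and receptors only Il1rl2 does.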

How the data were processed

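Each of 3 libraries had an alignment-based gene table, an alignment-based transcript table and a read-based transcript table. Build mm10 and the GENCODE M21 annotation were used, per the file headers and deposited notes. Programs and use of strand were not given in the sources used here. Expected counts, as deposited, are estimated reads or fragments and can be fractional. TPM, as deposited, is scaled by effective length and to a fixed total over all features of a table. The deposited percent values give each transcript's share of its gene; shares here were recomputed from TPM.

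Read-based transcript TPM was summed per gene. Levels are means and SDs over 3 libraries, and differences were taken within a library on log2(TPM + 1), with a pseudocount of 1. They were tested with the exact two-sided sign-flip permutation test over libraries and Benjamini-Hochberg adjustment, after the code was tested on simulated data. Python 3.11.15, pandas 2.3.3, numpy 2.4.6, scipy 1.17.1 and matplotlib 3.10.9 were used. The text names all 9 genes, the highest and lowest 2 genes of each pathway list, and the 3 genes nearest to Il1b and Il1rn. It also names transcripts holding on average at least 10% of a gene in either quantification. Other genes, named to show a difference between the quantifications, a count of 0 or a marker level, were chosen after their values were seen. The members and lists were chosen with earlier results of these data known. Depth limits the receptor genes, which rest on a few counts per library. The labels mention no molecular identifiers, so floors and intervals cover counting error only.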

Additional observations from a re-analysis of the deposited data

How the results depend on the processing

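Il1rn minus Il1rap, the step between the high and the low genes, kept its sign under every alternative run, while some pairs turned. Il1b minus Il1a was -0.39 ± 0.24 on the log2 scale over protein-coding transcripts and -0.42 ± 0.08 in CPM, which is not corrected for length, against 0.80 ± 0.16. The protein-coding filter could remove RNA from Il1b but none from Il1a. Sigirr minus Il1r1 was -0.35 in the read-based tables and -0.24 in CPM, and Il1r1 minus Il1r2 was 0.36 in CPM. Il18 minus Il1rn turned from 0.34 to -0.83 ± 0.43 in CPM, beyond its spread, and to -0.46 in the read-based tables, and Il1r2 minus Sigirr turned from 0.20 to -0.10 by posterior mean TPM and -0.12 in CPM. Il1rap over Il1r2 was within its spread by posterior mean TPM (0.19 ± 0.29) and with a pseudocount of 0.1 (1.58 ± 1.73), and Il1rap over Sigirr was 0.10 ± 0.06 by posterior mean TPM. Il18 minus Il18bp was -2.18 ± 0.59 in CPM. The cause was not tested beyond the construction of these measures. Neighbouring pairs beyond their spread, in either direction, numbered 5 in the main run. They numbered 6 over protein-coding transcripts, 7 in CPM and 4 with a pseudocount of 0.1. With genes of a mean TPM under 1 left out, which leaves fewer pairs, they numbered 3. The median level of the 9 genes was 29.3 TPM, and 102 TPM after rescaling to protein-coding genes, which removes other features from the total. Protein-coding transcripts held 68.9% ± 5.21 of the summed TPM of the 9 genes, 56.5% in the read-based tables and 87.9% of expected counts.

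Leaving out each library in turn moved the median level between 21.2 and 38.0 TPM, the number of neighbouring pairs beyond their spread between 5 and 7, and the protein-coding share between 66.1% and 71.3%. The rule for pairs is easier to meet with fewer libraries. Il1b minus Il1a stayed between 0.73 and 0.89, Il1b minus Il1rn between 3.30 and 3.91, Il18 minus Il18bp between -0.72 and -0.21, Il1r1 minus Il1r2 between -0.61 and -0.14, Il1rap minus Il1r1 between 0.89 and 0.95, and Il1rap minus Sigirr between 0.70 and 0.78. With 6 genes detected, the count was 5 over protein-coding transcripts or at a TPM of at least 2, 7 by the posterior mean, Sigirr being the gene added, and 6 otherwise. The share of all protein-coding genes, 39.3%, was computed for the main rule alone, so the other counts have no share to be read against. No paired analysis was possible because there is only 1 group, so no samples pair across groups; the differences between genes were themselves taken within libraries. Depth limits Il1r1, Il1r2, Sigirr and the transcripts of Il1rap.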
